A study of Mus musculus with 6 samples.

Results

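The 37 genes described here encode the granule contents of neutrophils, proteins of mature neutrophils and the transcription factors that guide their formation. They were chosen by symbol from a list of neutrophil genes, without a threshold on their values, and all 37 were found among the 55421 mouse genes of the count table. By role they were divided into 4 transcription factors, 5 primary granule genes, 10 secondary granule genes, 15 mature neutrophil genes and 3 genes shared with other myeloid cells. Members and roles were chosen with earlier results of these data known. All 37 passed the filter on low counts, and the lowest count of any of them in any library was 62.

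The study asked how the transcriptome of osteocytes, the cells embedded in bone matrix, differs after blood loss. It compared 3 femur libraries of mice after phlebotomy (blood removal) with 3 femur libraries of control mice. All mice were WT, of the C57BL/6 strain and 12 weeks old, and no allele or agent other than the phlebotomy is named. Total RNA came from bone fractions enriched for osteocytes, not from sorted cells. The volume of blood removed, the interval before sampling and any pooling of animals were not stated in the labels.

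Neutrophils form in the bone marrow from granulocyte-monocyte progenitors, and their granule proteins are made in sequence. Proteases and myeloperoxidase of the primary (azurophil) granules are transcribed at the promyelocyte stage, lactoferrin and the other secondary granule proteins at the myelocyte and metamyelocyte stages, and receptors and proteins of the mature cell last. C/EBP factors, PU.1, RUNX factors and the repressor GFI1 are among the transcription factors of this sequence.

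The promoters of 3 primary granule genes and 2 secondary granule genes are shown as examples, because these roles held the highest and the most negative fold changes of granule genes. Each is the RefSeq window of 250 bases before to 50 bases after the start on the gene's strand (GRCm38.p6). The windows are chr10:79886062-79886361 on the plus strand for Elane, chr10:79879417-79879716 on the plus strand for Prtn3, chr14:56102525-56102824 on the minus strand for Ctsg, chr9:111019042-111019341 on the plus strand for Ltf and chr9:110419558-110419857 on the plus strand for Ngp. Capitals mark GAGGAA, a PU.1 core motif, and TTNNGCAA, a C/EBP motif, on either strand.
Elane: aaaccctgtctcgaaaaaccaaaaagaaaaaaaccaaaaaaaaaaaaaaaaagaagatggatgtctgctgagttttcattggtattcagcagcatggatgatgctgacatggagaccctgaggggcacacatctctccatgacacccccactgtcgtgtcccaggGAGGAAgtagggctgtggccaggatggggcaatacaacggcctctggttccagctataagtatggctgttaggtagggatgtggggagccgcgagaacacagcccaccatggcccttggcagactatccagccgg
Prtn3: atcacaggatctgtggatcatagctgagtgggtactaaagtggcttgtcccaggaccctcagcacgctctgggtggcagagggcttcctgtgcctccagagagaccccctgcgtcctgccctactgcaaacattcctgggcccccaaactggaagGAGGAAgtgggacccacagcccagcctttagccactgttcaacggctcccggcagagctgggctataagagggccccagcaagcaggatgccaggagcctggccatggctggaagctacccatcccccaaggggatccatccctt
Ctsg: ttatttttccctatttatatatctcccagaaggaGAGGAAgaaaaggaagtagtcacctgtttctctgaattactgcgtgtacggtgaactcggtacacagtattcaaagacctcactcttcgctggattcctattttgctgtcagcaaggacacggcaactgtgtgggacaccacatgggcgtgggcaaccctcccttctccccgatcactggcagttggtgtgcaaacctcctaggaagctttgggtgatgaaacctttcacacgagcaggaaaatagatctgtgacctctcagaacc
Ltf: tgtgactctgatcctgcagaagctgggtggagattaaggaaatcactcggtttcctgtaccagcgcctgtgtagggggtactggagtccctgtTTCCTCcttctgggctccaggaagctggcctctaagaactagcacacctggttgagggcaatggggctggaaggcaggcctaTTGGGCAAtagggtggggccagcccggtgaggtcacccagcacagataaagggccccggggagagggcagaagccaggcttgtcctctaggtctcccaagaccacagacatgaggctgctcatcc
Ngp: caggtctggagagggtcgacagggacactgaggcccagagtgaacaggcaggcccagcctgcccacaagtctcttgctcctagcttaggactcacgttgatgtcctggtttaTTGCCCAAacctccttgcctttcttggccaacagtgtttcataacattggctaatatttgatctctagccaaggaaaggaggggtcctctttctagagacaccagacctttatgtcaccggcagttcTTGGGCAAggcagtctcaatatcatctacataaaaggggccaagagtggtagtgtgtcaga

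RefSeq promoters were matched for 33 of the 37 genes, and for genes with several starts the first listed was read. GAGGAA was present on either strand in the promoters of 5 of 5 primary granule genes, 6 of 10 secondary granule genes and 7 of 13 mature neutrophil genes, against 28.3% of all 32851 RefSeq promoters of the same length. TTNNGCAA was present in 1 of 5, 5 of 10 and 3 of 13, against 10.8% of all promoters. The GFI1 core AAATCA was present in 0 of 5, 3 of 10 and 3 of 13 (14% of all promoters), and the RUNX core TGTGGT in 1 of 5, 1 of 10 and 2 of 13 (16.8%). Matches of different motifs were counted separately, also where they shared bases, and a match in a window is a description of its sequence. In the promoters printed above, the first GAGGAA lay 85 bases before the start of Elane, 95 bases before that of Prtn3 and 216 bases before that of Ctsg. The promoter of the primary granule gene Ms4a3, not printed, held both GAGGAA and TTNNGCAA. Ms4a3 had a higher log2 fold change (0.86) than Elane (0.51), so the printed promoters do not stand for their roles.

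Libraries held 14853290 to 15866385 gene counts after phlebotomy and 11219243 to 19015588 in controls, so that 3 counts corresponded to 0.164 to 0.296 CPM (counts scaled to library size and adjusted with TMM). Libraries are named by group and by the number in the deposited columns. In a principal component analysis the first component (44.1% of variance) put phlebotomy 1 and 4 at 49.3 and 31.9, phlebotomy 2 at -6.85, and the controls at -42.6 to -12.9, so phlebotomy 2 stood nearer to the controls than to the other phlebotomy libraries. All 10 osteocyte markers were tested and had negative log2 fold changes (median -0.69). Of them 8 had an edgeR unadjusted p under 0.05, where 9.42% of all genes tested were lower at that p. For 4 of the 10 all phlebotomy libraries lay below all controls, as for 11.2% of all genes tested. The summed level of the markers was 14110 to 25416 CPM after phlebotomy and 23336 to 49534 CPM in controls. Dmp1 was its largest part (22234 CPM in phlebotomy 2). The defining markers of the labelled tissue were thus present in every library. The part of their difference in the neutrophil values was not tested. The 37 neutrophil genes together took 5.81%, 4.74% and 3.96% of all gene counts in phlebotomy 1, 2 and 4, and 2.46%, 4.35% and 6.12% in control 1, 2 and 4. The groups overlapped, and in bulk RNA a change in the number of cells of a type and a change in RNA per cell cannot be told apart.

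The comparison across genes used, unless another fit is named, the quasi-likelihood test of edgeR with Benjamini-Hochberg adjustment over 18838 genes. It called 3 genes at an adjusted p under 0.05 (0.0159% of genes tested) and none of the 37. At an unadjusted p under 0.05, 5 of the 37 were higher and 1 was lower after phlebotomy, where 7.01% of all genes tested were higher and 9.42% lower. The 3 phlebotomy libraries stood above the 3 control libraries for 4 of the 37 and below them for 1, where 10.1% and 11.2% of all genes tested did so. The median log2 fold change of the 37 was 0.07, with 23 above 0 and 14 below, beside -0.0028 over all genes tested. The values differed by role, as described in turn.

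Primary granule genes had the highest median log2 fold change of the roles. All 5 had positive log2 fold changes, with a median of 0.86 and a range of 0.32 to 1.25. Of the 5, 4 had an unadjusted p under 0.05, where 7.01% of all genes tested were higher at that p. In all 5 the lowest library was control 1. The median was 0.60 without phlebotomy 1, 0.67 without control 1, 1.02 without phlebotomy 2 and 0.55 with a trend of GC content and gene length removed. In GENCODE M21 (GRCm38) they lie at chr10:79886247-79888215 (Elane, plus strand), chr10:79874476-79883174 (Prtn3, plus), chr14:56099881-56102574 (Ctsg, minus), chr19:11629496-11640851 (Ms4a3, minus) and chr11:87793581-87804413 (Mpo, plus). Ctsg (ENSMUSG00000040314), which encodes the granule protease cathepsin G, had 417, 176 and 346 CPM in phlebotomy 1, 2 and 4, against 106, 131 and 159 CPM in control 1, 2 and 4. Its phlebotomy libraries all stood above its controls, with phlebotomy 2 the nearest to them. The means were 313 ± 124 CPM after phlebotomy and 132 ± 26.5 CPM in controls (SD, n = 3 each), and the log2 fold change was 1.25 ± 0.27 (SE), a fold of 2.37 (edgeR adjusted p = 0.139).

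Prtn3 (ENSMUSG00000057729), which encodes proteinase 3, a serine protease of the same granules, showed the same order. It had 410, 212 and 321 CPM in phlebotomy 1, 2 and 4, against 97.3, 138 and 181 CPM in control 1, 2 and 4. Here too the groups did not overlap. The means were 314 ± 99.2 CPM after phlebotomy and 139 ± 41.9 CPM in controls (SD, n = 3 each), with a log2 fold change of 1.18 ± 0.26 (SE), a fold of 2.26 (edgeR adjusted p = 0.139). Part of its exon sequence overlaps the opposite-strand gene Plppr3 by 159 bases, and without strand information reads there cannot be told apart. Over the 6 libraries Plppr3 had 1238 counts and Prtn3 21369.

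Ms4a3 encodes a membrane protein of granulocyte-monocyte progenitors and is grouped here by its stage of expression. It had 263, 136 and 181 CPM in phlebotomy 1, 2 and 4, against 79.4, 113 and 127 CPM in control 1, 2 and 4, again without overlap. Its log2 fold change was 0.86 ± 0.24 (SE), a fold of 1.82 (edgeR adjusted p = 0.163). Elane, the gene of neutrophil elastase, had 734, 562 and 739 CPM in phlebotomy 1, 2 and 4, against 356, 498 and 575 CPM in control 1, 2 and 4. Phlebotomy 2 lay below control 4, so its groups overlapped. The log2 fold change of Elane was 0.51 ± 0.21 (SE; edgeR unadjusted p = 0.0271, adjusted p = 0.254), and it was 0.32 without control 1 (edgeR unadjusted p = 0.128).

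Mpo, the gene of myeloperoxidase, had the smallest difference of the primary granule genes. It had 893, 948 and 1283 CPM in phlebotomy 1, 2 and 4, against 605, 875 and 1014 CPM in control 1, 2 and 4. Its groups overlapped, and the log2 fold change was 0.32 ± 0.22 (SE; edgeR adjusted p = 0.483), with 0.13 without control 1 and 0.15 without phlebotomy 4. Per 100 Mpo counts, Prtn3 had 45.9, 22.3 and 25 counts in phlebotomy 1, 2 and 4, against 16.1, 15.8 and 17.9 in control 1, 2 and 4. Ctsg had 46.7, 18.6 and 27 per 100 Mpo counts in those phlebotomy libraries, against 17.5, 14.9 and 15.7 in the controls. Both ratios were higher in every phlebotomy library than in every control. Elane had 82.2, 59.3 and 57.6 per 100 Mpo counts, against 58.9, 57 and 56.7 in the controls, where phlebotomy 1 alone stood clear of the rest.

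**Figure D1:**
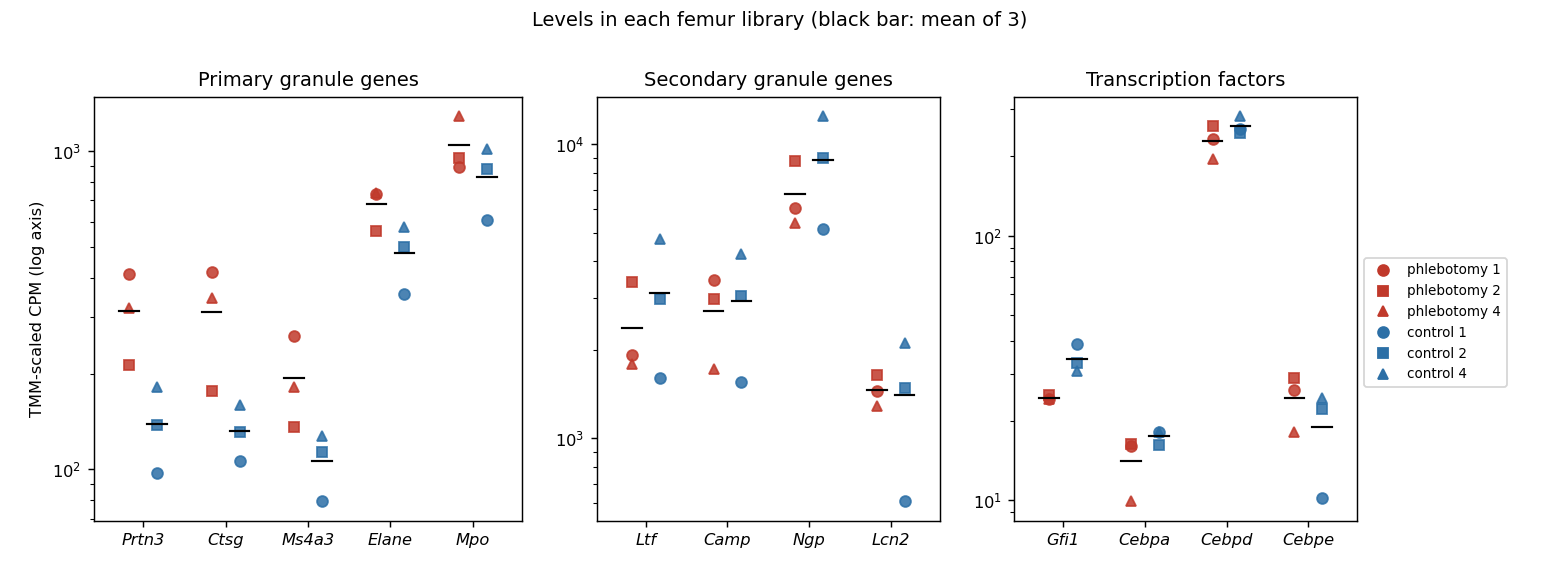
TMM-scaled CPM (log axis) of the 5 primary granule genes, 4 secondary granule genes and 4 transcription factors, 1 point per femur library (3 phlebotomy in red, 3 control in blue), with a black bar at the mean of each group. For Prtn3, Ctsg and Ms4a3 all phlebotomy points lie above all control points, for Gfi1 all lie below, and for Ltf, Camp, Ngp and Lcn2 the groups overlap.

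The call on these genes depended on the library phlebotomy 2 and on the test. Without phlebotomy 2, edgeR called 4 of the 37, Ctsg (log2 fold change 1.49, adjusted p = 0.00831), Prtn3 (1.36, adjusted p = 0.0181), Ms4a3 (1.02, adjusted p = 0.0339) and Plac8 (1.01, adjusted p = 0.0386), where 4.74% of 20300 genes were called. With DESeq2 on all 6 libraries 3 of the 37 passed, Ctsg (adjusted p = 0.00186), Prtn3 (adjusted p = 0.00251) and Ms4a3 (adjusted p = 0.0332), where 1.51% of genes were called. With no filter on low counts, edgeR called the same 4 members as without phlebotomy 2, where 1.24% of 46504 genes were called. Without phlebotomy 1 the edgeR log2 fold changes were 1.0 for Ctsg and 0.96 for Prtn3 (adjusted p = 0.613 for each) and 0.60 for Ms4a3 (adjusted p = 0.619). With a trend of GC content and gene length removed, Ms4a3 had 0.55 (edgeR adjusted p = 0.251).

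Markers of dividing cells, of osteoblasts and of other myeloid cells were read beside these genes. All 8 of 8 cell cycle markers were tested and had positive log2 fold changes, with a median of 0.52. Their summed level was 1099, 881 and 1130 CPM in phlebotomy 1, 2 and 4, against 600, 819 and 898 CPM in control 1, 2 and 4. Phlebotomy 1 and 4, the libraries highest for Ctsg and Prtn3, were also the highest for these markers. All 8 osteoblast markers had negative log2 fold changes (median -0.55), with a summed level of 13186, 40931 and 18809 CPM in phlebotomy 1, 2 and 4, against 59665, 40313 and 40202 CPM in control 1, 2 and 4. Phlebotomy 1 and 4 thus stood apart from the controls for this sum too, and phlebotomy 2 lay at the level of the controls. Col1a1 and Col1a2 were the largest parts of the sum (16539 and 20531 CPM in phlebotomy 2). By gene, phlebotomy 2 lay below all controls for Col1a1, Ibsp and Runx2, and within their range for the other osteoblast markers. Of 10 monocyte and macrophage markers 9 had positive log2 fold changes (median 0.40), with summed levels of 1325 to 1785 CPM after phlebotomy and 1324 to 1494 CPM in controls. Of 8 eosinophil markers 7 were positive (median 0.38), with 1249 to 1733 CPM after phlebotomy and 879 to 1334 CPM in controls. Cathepsin G is made by mast cells too, and of 8 basophil and mast cell markers 3 were positive (median -0.15), with 182 to 218 CPM after phlebotomy and 190 to 282 CPM in controls. The part of these cells in the granule gene values was not tested.

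Log2 fold changes of the 10 secondary granule genes centred on a median of -0.13 and ran from -0.39 to 0.17, with 3 above 0. None had an unadjusted p under 0.05, and all 10 overlapped between groups. In all 10 the lowest library was control 1, and in 9 of 10 the highest was control 4. The median was 0.14 without control 4 and -0.45 without control 1, so its direction rested on control 4. Ngp, which encodes neutrophilic granule protein, had 6073, 8747 and 5402 CPM in phlebotomy 1, 2 and 4, against 5131, 8932 and 12409 CPM in control 1, 2 and 4. The controls spanned the phlebotomy libraries, and the log2 fold change was -0.39 ± 0.31 (SE; edgeR adjusted p = 0.543).

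Ltf, the gene of the iron-binding protein lactoferrin, had 1924, 3408 and 1787 CPM in phlebotomy 1, 2 and 4, against 1607, 2966 and 4758 CPM in control 1, 2 and 4 (log2 fold change -0.39 ± 0.36, SE; edgeR adjusted p = 0.602). Camp, which encodes the antimicrobial peptide cathelicidin, had 3440, 2967 and 1719 CPM in phlebotomy 1, 2 and 4, against 1546, 3042 and 4219 CPM in control 1, 2 and 4 (-0.12 ± 0.34; edgeR adjusted p = 0.887). In each of these genes control 1 and control 4 were the extremes, and the phlebotomy libraries lay between them. Lcn2, the gene of the siderophore-binding lipocalin, had 1447, 1638 and 1290 CPM in phlebotomy 1, 2 and 4, against 610, 1478 and 2114 CPM in control 1, 2 and 4, with means of 1458 ± 174 CPM and 1401 ± 755 CPM (SD, n = 3 each). Pglyrp1, which encodes a peptidoglycan recognition protein, had the highest log2 fold change of the group. It had 144, 175 and 113 CPM in phlebotomy 1, 2 and 4, against 63, 134 and 188 CPM in control 1, 2 and 4 (0.17 ± 0.34, SE; edgeR adjusted p = 0.835).

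The other 5 secondary granule genes lay inside that range. They were Fcnb (-0.23), a ficolin that binds microbial sugars, Itgb2l (-0.21), an integrin chain, Cd177 (-0.15), a surface glycoprotein of neutrophils, Chil3 (-0.12), a chitinase-like protein, and Mmp8 (0.02), the neutrophil collagenase, each with its log2 fold change. Reads of Chil3 may be shared with its close relative Chil4. With scaling by library size only, Camp (0.0039) and Chil3 (0.01) were just above 0, where the median over all genes tested was 0.14.

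Mature neutrophil genes were mostly above 0 but by little. Of 15, 12 had positive log2 fold changes, with a median of 0.11 and a range of -0.23 to 0.50, and none had an unadjusted p under 0.05. In 12 of 15 the lowest library was control 1. The median was -0.10 without control 1, 0.29 without control 4, 0.01 without phlebotomy 1 and -0.07 with the GC and length trend removed. S100a9 and S100a8 encode the subunits of calprotectin, an abundant cytosolic protein of neutrophils. S100a9 had 15241, 8922 and 7744 CPM in phlebotomy 1, 2 and 4, against 4870, 8340 and 12133 CPM in control 1, 2 and 4 (log2 fold change 0.33 ± 0.34, SE; edgeR adjusted p = 0.64). S100a8 had 12475, 6861 and 6759 CPM in phlebotomy 1, 2 and 4, against 4621, 7681 and 9794 CPM in control 1, 2 and 4 (0.24 ± 0.31; edgeR adjusted p = 0.725). Phlebotomy 1 was the highest library for both and control 1 the lowest, and the groups overlapped.

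Fpr1, a receptor for bacterial formyl peptides, had the highest log2 fold change of the mature group. It had 113, 101 and 103 CPM in phlebotomy 1, 2 and 4, against 43.6, 82.4 and 98.1 CPM in control 1, 2 and 4. Its groups did not overlap, but control 4 lay close below the lowest phlebotomy library, and the log2 fold change was 0.50 ± 0.23 (SE; edgeR adjusted p = 0.308). Padi4, an enzyme that citrullinates histones in extracellular traps, had the most negative one. It had 32.2, 52.2 and 28.5 CPM in phlebotomy 1, 2 and 4, against 22.3, 43 and 66.9 CPM in control 1, 2 and 4 (-0.23 ± 0.37, SE; edgeR adjusted p = 0.78). Retnlg, which encodes resistin-like gamma, had 2078, 2070 and 1437 CPM in phlebotomy 1, 2 and 4, against 1268, 1537 and 2636 CPM in control 1, 2 and 4 (0.04 ± 0.27; edgeR adjusted p = 0.957). The groups of both genes overlapped.

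The remaining mature genes were given by their log2 fold changes alone. Receptors of the mature cell had values near 0, with 0.16 for the chemokine receptor Cxcr2, 0.07 for the G-CSF receptor Csf3r, 0.09 for Fpr2, 0.12 for the lectin receptor Clec4d and 0.20 for Trem3, a triggering receptor of myeloid cells. The surface protein Ly6g, the target of a widely used antibody to mouse neutrophils, had -0.18. The metalloprotease Mmp25 had 0.06, the haemoglobin-binding protein Hp 0.16, the cytokine Il1b 0.11 and the histidine decarboxylase Hdc -0.11.

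**Figure D2:**
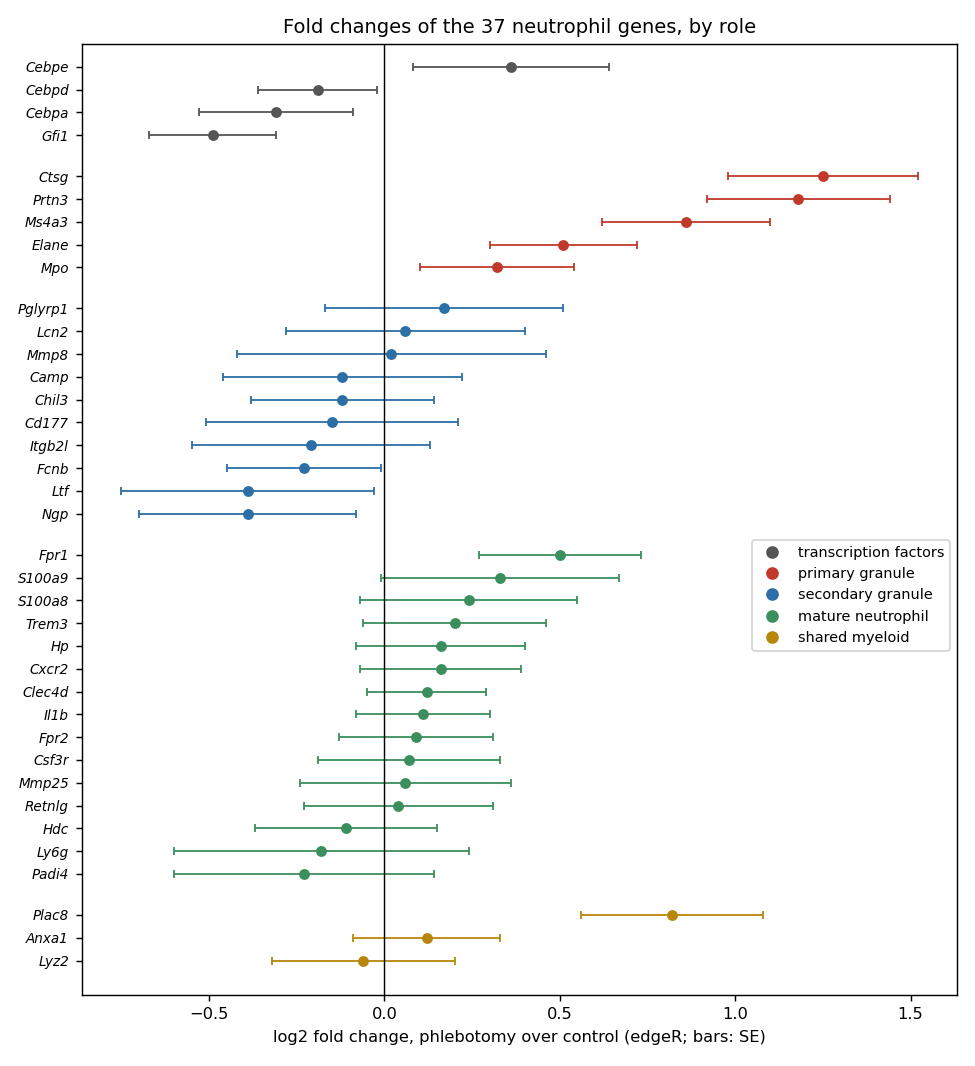
Log2 fold change, phlebotomy over control, of each of the 37 genes (points) with its SE (bars), ordered within role from high to low. The 5 primary granule genes run from 0.32 to 1.25, the 10 secondary granule genes from -0.39 to 0.17 and the 15 mature neutrophil genes from -0.23 to 0.50.

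Of the genes shared with other myeloid cells, Plac8 had a value near those of the primary granule genes. Plac8, a gene of myeloid progenitors and monocytes as well as neutrophils, had 415, 193 and 276 CPM in phlebotomy 1, 2 and 4, against 130, 154 and 216 CPM in control 1, 2 and 4. Phlebotomy 2 lay below control 4, and the log2 fold change was 0.82 ± 0.26 (SE; edgeR unadjusted p = 0.00715, adjusted p = 0.196). Lyz2, the lysozyme of macrophages and neutrophils, had 3532, 3477 and 2473 CPM in phlebotomy 1, 2 and 4, against 2178, 3349 and 4340 CPM in control 1, 2 and 4 (-0.06 ± 0.26; edgeR adjusted p = 0.931). Reads of Lyz2 may be shared with the near-identical Lyz1. Anxa1, which encodes the anti-inflammatory protein annexin A1, had a log2 fold change of 0.12.

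Among the transcription factors, Gfi1 was the member with the most negative log2 fold change of all 37. Gfi1 (ENSMUSG00000029275, chr5:107716657-107726036, minus strand), a repressor needed for neutrophil formation, had 24.1, 25 and 24.2 CPM in phlebotomy 1, 2 and 4, against 39.1, 33.1 and 30.8 CPM in control 1, 2 and 4. All phlebotomy libraries lay below all controls and close together, with means of 24.4 ± 0.472 CPM after phlebotomy and 34.3 ± 4.27 CPM in controls (SD, n = 3 each). The log2 fold change was -0.49 ± 0.18 (SE; edgeR unadjusted p = 0.0142, adjusted p = 0.219), and it ran from -0.59 to -0.34 over 16 alternatives. Control 1, the lowest library for 31 of the 37 genes, was the highest for Gfi1. That library was also the highest for the osteocyte marker Dmp1 and the osteoblast marker Runx2, but not for the osteocyte marker Sost. Which cells gave the Gfi1 values was not tested. An opposite-strand transcript, A430072P03Rik, overlaps the exons of Gfi1 by 101 bases and had 497 counts over the 6 libraries, where Gfi1 had 2628.

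The C/EBP factors overlapped between groups. Cebpa, which starts the granulocyte programme, had 16.1, 16.3 and 9.92 CPM in phlebotomy 1, 2 and 4, against 18.1, 16.2 and 18.1 CPM in control 1, 2 and 4 (log2 fold change -0.31 ± 0.22, SE; edgeR adjusted p = 0.489). Cebpe, needed for secondary granules, had 26.2, 28.9 and 18.2 CPM in phlebotomy 1, 2 and 4, against 10.2, 22.2 and 24.4 CPM in control 1, 2 and 4 (0.36 ± 0.28; edgeR adjusted p = 0.541). Its lowest value was in control 1, which was the lowest library for 31 of the 37 genes. Cebpd, induced in later granulocytes and in many stressed cells, had 232, 259 and 194 CPM in phlebotomy 1, 2 and 4, against 252, 245 and 282 CPM in control 1, 2 and 4 (-0.19 ± 0.17; edgeR adjusted p = 0.598). Cebpd overlaps Spidr on the opposite strand by 562 bases, and Spidr had 1377 counts over the 6 libraries beside 22143 for Cebpd.

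**Figure D3:**
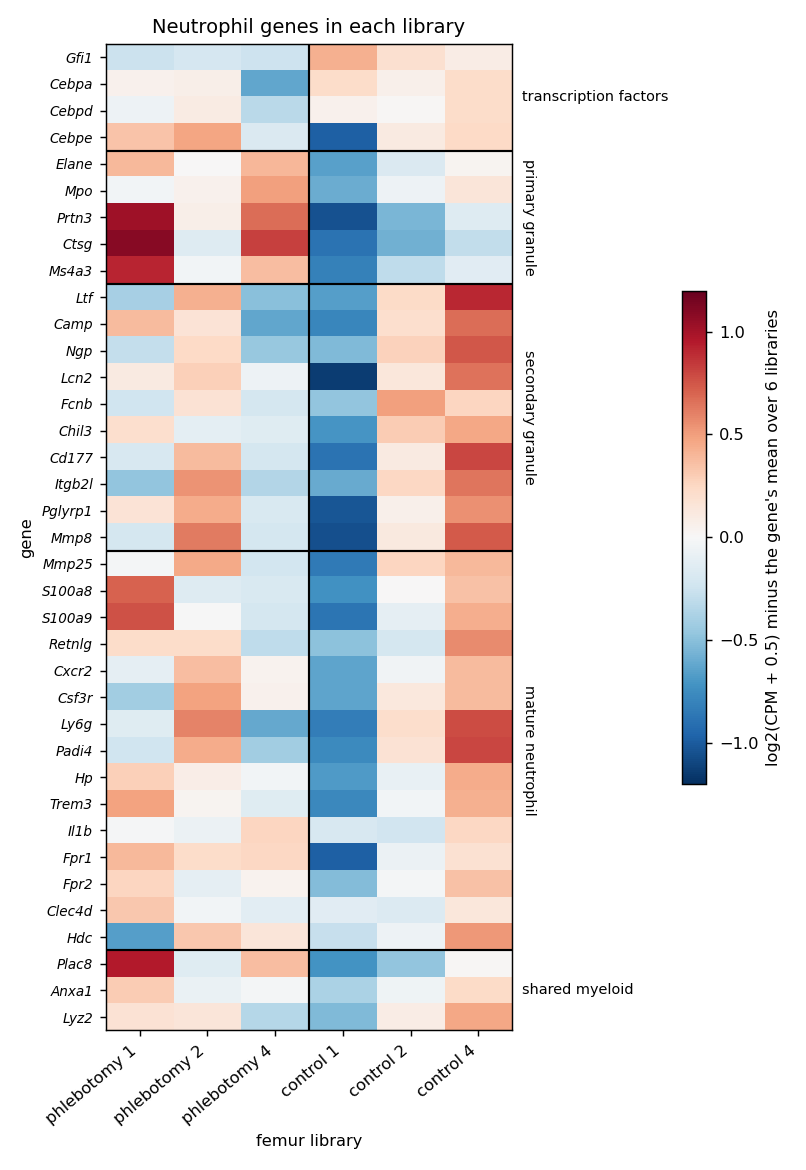
Each gene's log2(CPM + 0.5) minus its mean over the 6 libraries (colour; red above the mean, blue below), with genes down the page by role and libraries across, phlebotomy left of control. Control 1 is the lowest library for 31 of the 37 genes, control 4 the highest for 18, and phlebotomy 1 the highest for 10.

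The roles were also compared inside each library, which removes only a scaling that both roles share. The total of neutrophil RNA can still enter where the roles scale differently. The mean log2(CPM + 0.5) of the 5 primary granule genes minus that of the 10 secondary granule genes was -0.32, -1.42 and -0.25 in phlebotomy 1, 2 and 4, against -1.11, -1.65 and -1.82 in control 1, 2 and 4. Phlebotomy 1 and 4 lay above all controls and phlebotomy 2 lay among them. The group means were -0.67 ± 0.66 after phlebotomy and -1.52 ± 0.37 in controls (SD, n = 3 each), a difference of 0.86. That difference was 0.69, 1.24 and 0.65 without phlebotomy 1, 2 and 4, and 1.07, 0.80 and 0.71 without control 1, 2 and 4. No p is given for a score over chosen genes.

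Primary granule genes were set against mature neutrophil genes in the same way. That difference was 1.22, 0.47 and 1.32 in phlebotomy 1, 2 and 4, against 0.50, 0.35 and 0.16 in control 1, 2 and 4. Phlebotomy 2 lay just below control 1, and the group means were 1.0 ± 0.47 after phlebotomy and 0.34 ± 0.17 in controls (SD, n = 3 each). Secondary minus mature genes gave 1.55, 1.89 and 1.57 in phlebotomy 1, 2 and 4, against 1.60, 2.0 and 1.98 in control 1, 2 and 4, with groups that overlapped.

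In raw counts, primary granule genes had 17.7, 10.5 and 23.3 counts per 100 secondary granule counts in phlebotomy 1, 2 and 4, against 12.1, 9.11 and 7.62 in control 1, 2 and 4. Prtn3 had 21.3, 6.21 and 18 counts per 100 Ltf counts in those phlebotomy libraries, against 6.06, 4.66 and 3.81 in the controls. Ctsg had 21.7, 5.17 and 19.4 counts per 100 Ltf counts in the phlebotomy libraries, against 6.61, 4.4 and 3.35 in the controls. Phlebotomy 2 lay just above control 1 for Prtn3 per Ltf and below it for the other ratios, whose groups overlapped.

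**Figure D4:**
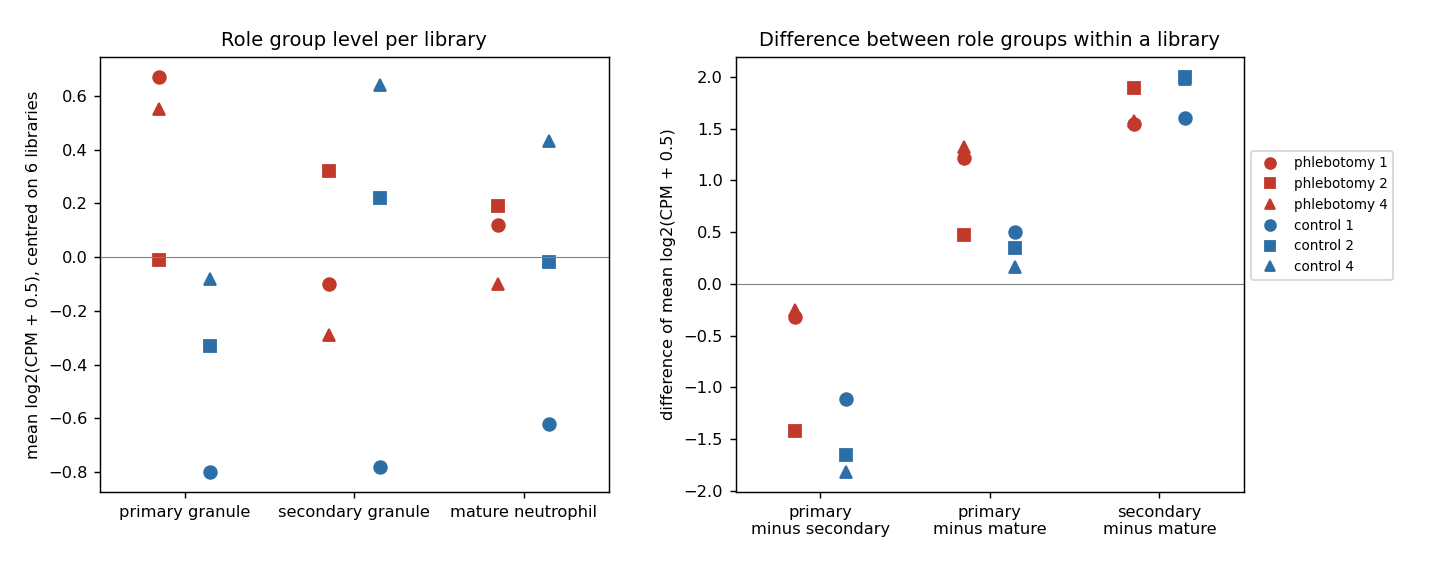
Left, mean log2(CPM + 0.5) of primary granule, secondary granule and mature neutrophil genes per library, centred on the mean of the 6 libraries; right, differences between these means within each library (3 phlebotomy in red, 3 control in blue). For primary minus secondary genes phlebotomy 1 and 4 are at -0.32 and -0.25, above all controls, and phlebotomy 2 at -1.42 is inside the control range.

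Other neutrophil gene groups were read from lists chosen with results of these data known. Of 6 genes of the NADPH oxidase, the enzyme complex that makes superoxide, 5 had positive log2 fold changes (median 0.16), and none had an unadjusted p under 0.05. Among those with the smallest p were Ncf1 (0.28), Ncf4 (0.18) and Cyba (0.19), and all 6 genes were highest in control 4 and lowest in control 1. Of 12 other granule genes 11 were tested, with 7 above 0 and a median of 0.04. Cst7, which encodes the protease inhibitor cystatin F, had 44, 30.5 and 35.6 CPM in phlebotomy 1, 2 and 4, against 14.7, 23.5 and 30.4 CPM in control 1, 2 and 4 (0.68 ± 0.24, SE; edgeR adjusted p = 0.218). Its groups did not overlap, but phlebotomy 2 (30.5 CPM) lay barely above control 4 (30.4 CPM). Olfm4, a protein of a subset of neutrophils, had a log2 fold change of -0.57 (edgeR unadjusted p = 0.0318), Lyz1 -0.76 at 1.2 to 3.96 CPM (unadjusted p = 0.0395) and the protease inhibitor Serpinb1a 0.38 (unadjusted p = 0.0818).

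Growth factor, trafficking and adhesion genes numbered 14, with 4 above 0 and a median of -0.02. Csf2rb, the signalling chain of the GM-CSF receptor, had 73.1, 80.7 and 64.3 CPM in phlebotomy 1, 2 and 4, against 90.5, 94.4 and 116 CPM in control 1, 2 and 4 (-0.47 ± 0.17, SE; edgeR adjusted p = 0.22). All phlebotomy libraries lay below all controls. The neutrophil chemoattractant Cxcl5 had a value of -0.68 on the log2 scale (edgeR adjusted p = 0.365), which was -1.28 without phlebotomy 2 (edgeR adjusted p = 0.0395) and -0.39 without phlebotomy 1 or control 4. The log2 fold change was -0.40 for the receptor chain Csf2ra and 0.25 for Alox5ap, needed for leukotriene synthesis. Of 10 genes of myeloid commitment 4 were above 0 (median -0.06). At an edgeR unadjusted p under 0.05, 3 of the 10 were lower (Kit, Runx1 and Klf4), where 9.42% of all genes tested were. Kit, the stem cell factor receptor of early progenitors, had 49.8, 69.1 and 64.1 CPM in phlebotomy 1, 2 and 4, against 84.9, 75.7 and 101 CPM in control 1, 2 and 4 (-0.52 ± 0.18, SE; edgeR adjusted p = 0.213). The groups of Kit did not overlap. Runx1 (-0.54) and Klf4 (-0.56) are transcription factors of blood progenitors and of monocytes, and Cd34 (0.31) is a progenitor surface protein. Runx1 was highest in control 1 and lowest in phlebotomy 1, as were the osteoblast markers Col1a1 and Sp7. Which cells gave the Runx1 values was not tested. The other 6 genes of that list had log2 fold changes of 0.33 (Flt3), 0.13 (Spi1), 0.04 (Mycn), -0.0024 (Irf8), -0.12 (Myb) and -0.15 (Cebpb).

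Levels were compared between genes only per length, as mean CPM per kb of exon. In phlebotomy libraries the order began with S100a9 at 20374, S100a8 at 12534 and Ngp at 5516 CPM per kb, against 16183, 10613 and 7221 in controls. Elane was the highest primary granule gene at 690 CPM per kb after phlebotomy and 484 in controls. The leading genes of the list were thus products of the later stages in both groups. Neighbours in this order were not tested against each other.

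Markers of the remaining cell types gave the setting of these values. The 10 erythroid markers (median 0.18, 7 above 0) were at 20243 to 30300 CPM after phlebotomy and 13690 to 29943 CPM in controls, and all 10 were lowest in control 1, as most neutrophil genes were. The 7 B lineage markers found had a median of -0.37, 6 T and NK cell markers -0.05, and 5 megakaryocyte and platelet markers tested of 6 had -0.02. The part of these cells in the neutrophil values was not tested.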

How the data were processed

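RNA from 6 femur libraries (3 phlebotomy, 3 control) was sequenced on a HiSeq1500 as 126 bp paired-end reads from Nextera XT libraries, per the labels' protocols. The authors deposited raw counts per gene and a filtered copy of these counts. They also deposited a signal table of CPM scaled by TMM, per the file headers and names. Per the submitters' processing notes, the builds were mm10 and GRCm38.p3 and the tools included limma, edgeR, DESeq2 and STAR (2.5.2a and 2.7.3a), with no role given. The counting method and its strand setting were not given in the sources used here, and the Nextera XT kit does not mark strand.

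Of 55440 rows, 55421 name mouse genes. The 19 others, which held 0.00278% to 0.0284% of counts, were left out of library sizes and tests. The initial P of a column was read as phlebotomy, and the columns with the initial N were assigned to control by elimination, a limit on every comparison. Column numbers (1, 2 and 4) could not be matched to the titles, so columns were tied to groups only. Whether each library is a separate animal is not in the labels, and p-values therefore reflect only the spread among these libraries, which may be technical. No pair of libraries agreed within sampling noise, and same-numbered libraries did not deviate together, so numbers were not used to pair libraries.

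Raw counts were filtered with filterByExpr (minimum count 10), scaled with TMM and tested in R 4.3.3 with edgeR 4.0.16 (robust quasi-likelihood test), without covariates, with Benjamini-Hochberg adjustment over 18838 genes and a threshold of 0.05. The test was checked on simulated data. Levels are TMM-scaled CPM computed from the raw counts, as mean ± SD of 3 libraries, and standard errors come from the fit. Role levels are means of log2(CPM + 0.5). Gene positions and exon lengths are from GENCODE M21, in which 99.5% of IDs were found, and promoters from RefSeq (GRCm38.p6). Depth limits low values: 3 counts are 0.164 to 0.296 CPM, for counting error only.

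Members, roles, lists and alternatives were chosen with earlier results of these data known. Values in every library are given for primary granule and transcription factor members, members with an unadjusted p under 0.05, the 8 other members with the highest mean CPM, and the member of each role with the largest and smallest log2 fold change. From each of the other neutrophil lists up to 4 genes with the smallest p are named, except 1 that is not reported here. Alternatives were other scaling and filters, DESeq2 1.42.0, a replicate block, each library left out in turn, and limma 3.58.1 (voom, and trend on the authors' scaled values with a pseudocount of 0.5 or 1). A fit with GC and length trend removed was chosen after seeing the data. Python 3.11.15 and matplotlib 3.10.9 drew the figures.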

Additional observations from a re-analysis of the deposited data

Results flagged for a closer look

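The share of counts on the 19 rows that name no mouse gene was 0.0284% in phlebotomy 2, against 0.00337% to 0.00361% in the control libraries, which drew attention because these rows enter no comparison. The other phlebotomy libraries had 0.00278% and 0.00297%. Phlebotomy 2 was also the phlebotomy library with the lowest Ctsg and Prtn3, and any relation between these values was not tested.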

How the results depend on the processing

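The number of genes called was 3 in the edgeR fit as reported. With edgeR it was 577 without a filter on low counts and 20 among the authors' filtered genes. It was 284 with DESeq2 and 0 with limma-voom. With a library left out, the number called by edgeR ran from 0 (without phlebotomy 1) to 963 (without phlebotomy 2). It was 14 without control 2 and 7 without control 4. The cause was not tested. The number of the 37 called was 4 without a filter, 3 with DESeq2, 0 to 4 with a library left out (4 without phlebotomy 2) and 0 in the other alternatives. Members higher at an unadjusted p under 0.05 numbered 3 (without phlebotomy 1) to 6 with a library left out. Members lower at that p numbered 0 with library size only, 2 without a filter, 0 with the GC and length trend removed, and 1 to 3 with a library left out (3 without control 1 and 2 without phlebotomy 2). The primary minus secondary granule difference kept its sign in all 16 alternatives, at 0.65 to 1.24, and the primary minus mature difference at 0.51 to 0.93. Over 592 pairs of member and alternative, 518 kept direction and call, 11 became called, and 63 changed sign, in 24 members. With a library left out, log2 fold changes that changed sign ran -0.78 to 0.03 for Ltf, -0.44 to 0.21 for Camp, -0.31 to 0.45 for Lcn2, -0.41 to 0.07 for Chil3, -0.49 to 0.29 for Cd177, -0.64 to 0.06 for Itgb2l, -0.17 to 0.52 for Pglyrp1 and -0.35 to 0.45 for Mmp8. They ran -0.25 to 0.25 for Mmp25, -0.09 to 0.47 for S100a8, -0.0019 to 0.66 for S100a9, -0.18 to 0.38 for Retnlg, -0.07 to 0.40 for Cxcr2, -0.22 to 0.28 for Csf3r, -0.63 to 0.22 for Ly6g and -0.58 to 0.17 for Padi4. For the other members they ran -0.10 to 0.44 for Hp, -0.08 to 0.47 for Trem3, -0.01 to 0.25 for Il1b, -0.12 to 0.29 for Fpr2, -0.01 to 0.20 for Clec4d, -0.34 to 0.16 for Hdc, -0.04 to 0.25 for Anxa1 and -0.30 to 0.17 for Lyz2. With library size only, Camp had 0.0039, Chil3 0.01, Hdc 0.02 and Lyz2 0.07, and without a filter Lcn2 had -0.01, Mmp8 -0.04 and Retnlg -0.02. Among the authors' filtered genes, Lcn2 had -0.02, Mmp8 -0.06, Mmp25 -0.02, Retnlg -0.04, Csf3r -0.01 and Fpr2 -0.0011. With limma-trend at a pseudocount of either 0.5 or 1, Csf3r had -0.0044. With the GC and length trend removed, Mmp8 had -0.13, S100a8 -0.09, Retnlg -0.21, Trem3 -0.0019, Il1b -0.07, Fpr2 -0.17, Clec4d -0.18 and Anxa1 -0.04. The median of all genes was 0.14 with library size only and 0.18 without a filter, and other values are relative to that shift. Same-numbered libraries had correlations of deviations of -0.13, -0.105 and -0.0772, so no shared deviation was seen. Deviations from means of 3 libraries depend on each other, so these values cannot decide whether the design was paired. With a replicate block edgeR called 3 genes and 0 of the 37, with 6 members higher and 1 lower at an unadjusted p under 0.05, medians of -0.27 for transcription factors, 0.83 for primary, -0.05 for secondary, 0.12 for mature and 0.13 for shared myeloid genes, and differences of 0.85 (primary minus secondary) and 0.67 (primary minus mature). With 3 libraries a group, 1 library decided several of these values. The lowest count of any member in any library was 62 (Mmp25 in control 1). Control 1 had the fewest gene counts (11219243) and was the lowest library for 31 of the 37 genes, and any relation was not tested.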
